A study of Danio rerio with 6 samples.

Results

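The genes described here are named zebrafish transcripts that were lower in *flt1* mutant larvae than in WT larvae, outside the digestive enzymes of the pancreas, the structural RNAs, *ccdc80* and *dhrs13l1*. They were chosen from the 424 transcripts of the count table that the deposited tables of differential expression pair with a gene. Of these, 210 were kept as carrying a name that is neither a clone name nor a name with a colon, and that was not matched as an exception. This count still holds the RNAs U3 and U8 and labels such as membrane, none of which became members. A transcript was taken where its mean count over the 6 samples was 20 reads or more, every mutant sample was below every WT sample, and the mean mutant level was 0.5 times the mean WT level or less. This gave 63 transcripts of 61 genes, with *rpl31* and *srsf5b* each present as a pair of transcripts. Among all 18081 transcripts with that mean count, named or not, 0.857% met the same thresholds. Because the genotype contrast itself chose the members, their differences between mutants and WT are given as a description, without a test, and an absence of overlap between the genotypes is what the choice required.

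Whole larvae were collected at 4 days post fertilization to look for genes that differ with the loss of *flt1*. The mutants were homozygous for flt1ka601, a frameshift allele in an early exon of *flt1*, and carried the vascular reporter Tg(kdrl:eGFP)s843. The WT larvae carried the same reporter, and the AB strain is given for them, with no strain stated for the mutants. Each genotype had 3 samples, and nothing in the labels says how many larvae a sample pooled or whether samples came from separate clutches, so the spread between samples may be in part technical.

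*flt1* encodes Vegf receptor 1, which binds Vegf ligands without strong signalling of its own and limits the ligand that reaches other receptors on blood vessels. The members are not a known pathway. They range over contractile proteins of muscle, proteins that the liver secretes into plasma, enzymes that modify drugs and metabolites, transporters of the skin and kidney, immune receptors, adhesion proteins of neurons, and parts of the machinery that makes RNA and protein. In RNA from whole larvae, fewer cells of a type and less RNA per cell cannot be told apart, and this holds for each group below.

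The counts on transcripts summed to 10655504 to 13358468 reads in a mutant sample and 10792845 to 14936523 reads in a WT sample. WT replicate 1 stood apart in composition, since its 5 most counted transcripts took 36.9% of its reads, against at most 28.8% in any other sample. Levels are given as CPM, counts scaled to a common library size by TMM, which corrects each sample for depth and composition. The unit is counts per 1000000 of the TMM-scaled library size. It is not corrected for transcript length, so it is compared between samples and not between genes. Reads shared between transcripts of a gene are in no count, so a value is not always the level of the whole gene. Of the cell type markers looked for by name, 5 of 7 erythroid genes are named in the deposited tables, and their summed level was 666 to 1013 CPM in mutants and 262 to 295 CPM in WT. The summed level of the 3 named exocrine pancreas markers of 15 was 15.6 to 49.9 CPM in mutants and 68.5 to 140 CPM in WT. A single skeletal muscle marker of 5, *ckma*, and a single photoreceptor marker of 11 are named, and no marker of lens, liver, gut, myeloid cells or skin is. A marker is named only where the deposited tables list it as changed. A difference between the genotypes in these sums therefore follows in large part from the naming. A marker without a name may be expressed and unchanged, so the sums are not a measure of a cell type. No summed marker level was at 0, and the part of these cell types in the results below was not tested.

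The ratio of mean mutant to mean WT level had a median of 0.402 over the 63 members, against 0.993 over all 18081 transcripts with the same mean count. It was under 0.2 for 9 members, from 0.2 to 0.3 for 4, from 0.3 to 0.4 for 18 and from 0.4 to 0.5 for 32. Most members were thinly counted. Their median mean count was 53.7 reads per sample, and 42 of the 63 were under 100. All 63 passed the count filter of the edgeR test, which each could do through its WT samples alone. In that test 61 of the 63 had an adjusted p under 0.05 (quasi-likelihood test, Benjamini-Hochberg adjustment over 21029 transcripts), where 4.31% of all transcripts tested were called lower. Both facts follow in large part from the choice of members and nothing is read from them. The other 2 were *ebi3* and *pcdh2g4*.

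**Figure D1:**
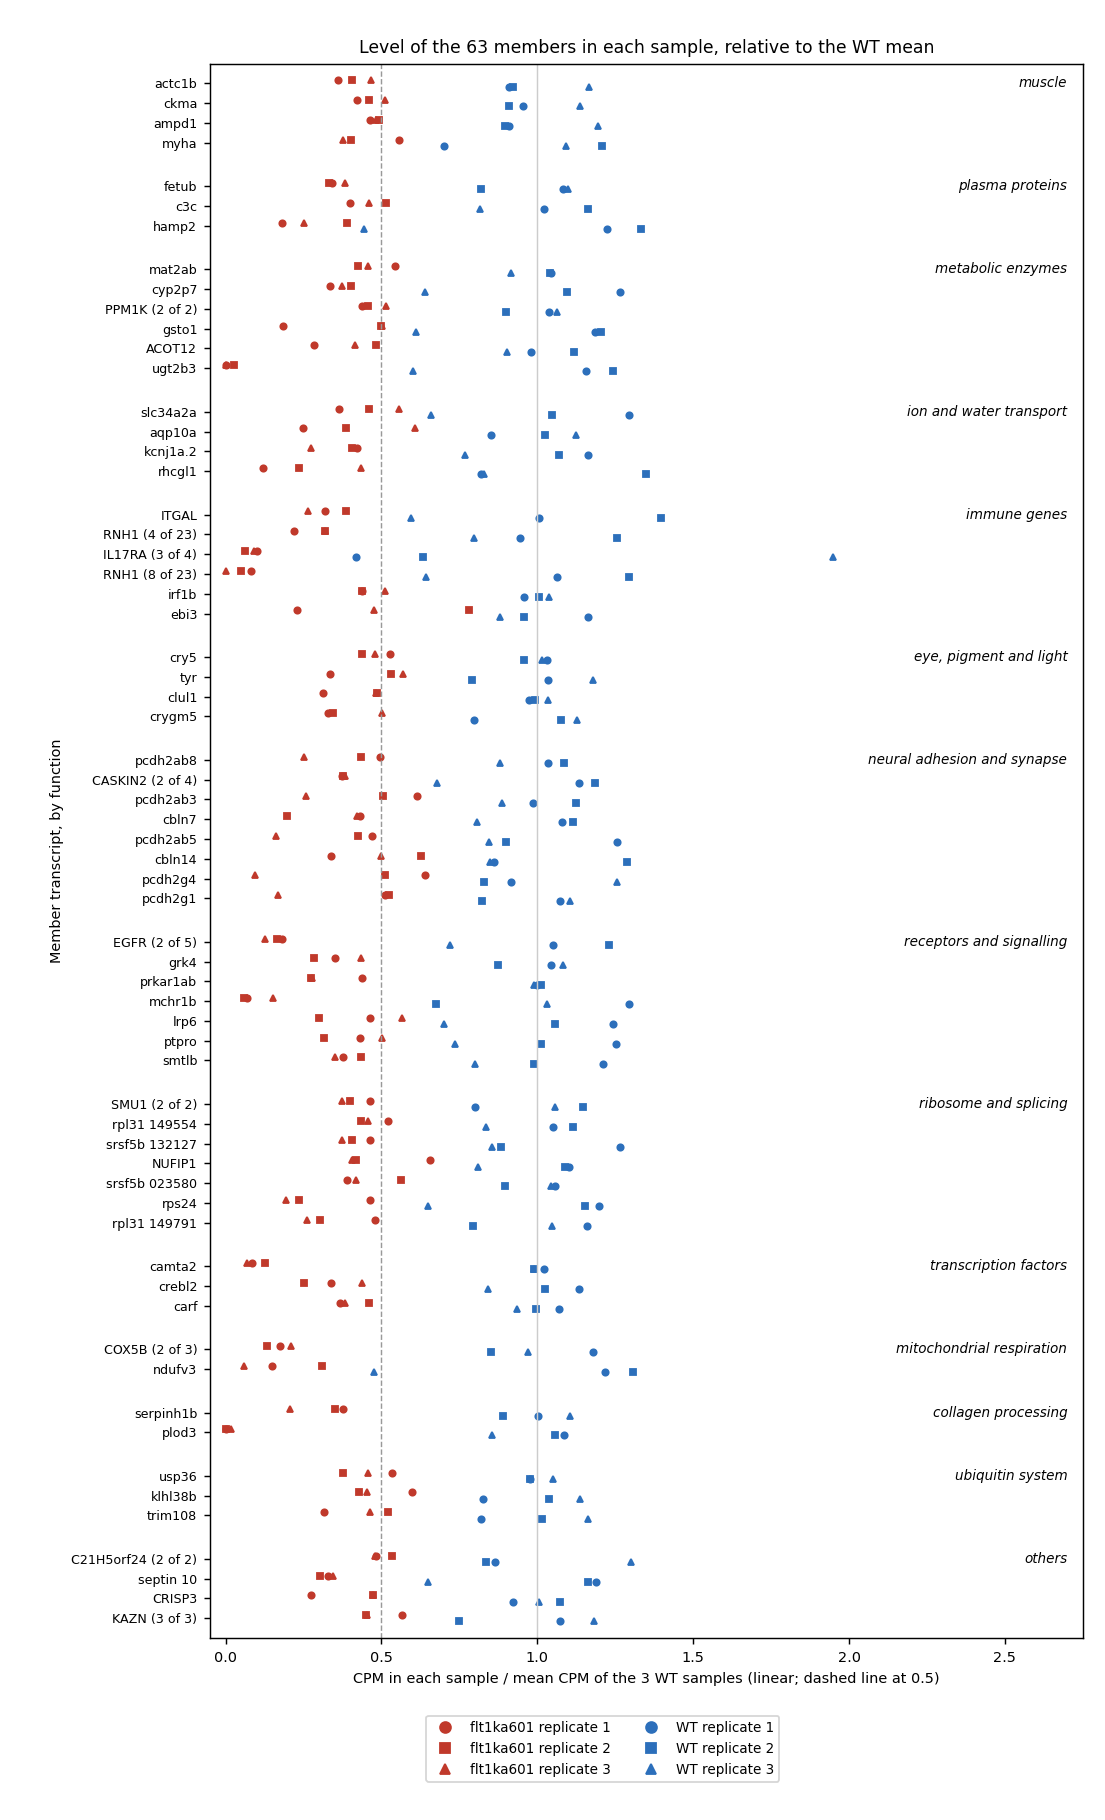
Level of each of the 63 members in each sample, as CPM divided by the mean CPM of the 3 WT samples (linear axis), with flt1ka601 samples in red and WT samples in blue and members grouped by function. A transcript of a gene with a pair of members carries the last digits of its identifier. Mutants lie left of WT in every row, as the choice required, and the gap is narrow for rows such as *ebi3* and *hamp2* and wide for *plod3* and *ugt2b3*.

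The distance between the genotypes differed widely among members. The lowest WT sample was at least 2 times the highest mutant sample in 15 members and at least 1.5 times in 47. It was under 1.2 times in 3 members, *ebi3*, *hamp2* and *slc34a2a*. Within the WT group, replicate 3 was the lowest sample in 33 of 63 members, replicate 2 in 17 and replicate 1 in 13. In 12 members WT replicate 3 was more than 1.5 times below both other WT samples, among them *hamp2*, *cyp2p7*, *gsto1*, *ugt2b3*, ITGAL, *ndufv3* and septin 10, which the files give as the date 10-Sep. In IL17RA (3 of 4) and C21H5orf24 (2 of 2) the same sample was more than 1.5 times above both others. WT replicate 1 stood below the other WT samples by that much in 2 members and WT replicate 2 in 1. Among the mutants, replicate 1, 2 and 3 were the highest mutant in 23, 20 and 20 members and the lowest in 26, 17 and 20. They were more than 1.5 times below both other mutants in 7, 2 and 8 members, and above both by that much in 5, 4 and 4.

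At the edge of the choice, the members nearest to a ratio of 0.5 were C21H5orf24 (2 of 2) at 0.499, *ebi3* at 0.496 and NUFIP1 at 0.494. The nearest named transcripts outside it were *ppp1r3db* at 0.509, *tspan5b* at 0.524 and *guca1d*, a calcium sensor of photoreceptors, at 0.580. The members with the fewest reads were *smtlb*, *ugt2b3* and *hamp2*, with mean counts of 20.5, 20.7 and 21 reads. Just under the minimum were *slc2a11a* with 19.3 reads and *nabp1a* with 16.8. Some transcripts with a low ratio stayed out because a sample of each genotype overlapped. *uqcrfs1*, the Rieske subunit of respiratory complex III, had 1.07, 11.6 and 5.92 CPM in mutants and 33.4, 31.7 and 0 CPM in WT, so that WT replicate 3 alone kept it out.

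Muscle genes held by far the most reads. *actc1b* encodes an alpha actin of striated muscle, *ckma* the muscle creatine kinase that buffers ATP, *ampd1* the AMP deaminase of muscle and *myha* a myosin heavy chain. *actc1b* had 5638, 6362 and 7307 CPM in mutants 1 to 3, against 14279.9, 14474 and 18289 CPM in WT 1 to 3, a ratio of 0.410. It made up 0.590% to 0.755% of all counted reads in mutants and 1.24% to 1.79% in WT. *ckma* had 1805, 1962 and 2187 CPM in mutants, against 4073, 3890 and 4862 CPM in WT, a ratio of 0.464. Both transcripts were lowest in mutant replicate 1 and highest in mutant replicate 3, and both were highest in WT replicate 3. The choice required a gap between the genotypes, and for both transcripts it was wider than the range within either genotype. *ampd1* had 200, 212 and 209 CPM in mutants, against 392.3, 387 and 516 CPM in WT. *myha* had 29.0, 21.1 and 19.6 CPM in mutants, against 36.5, 63.1 and 56.9 CPM in WT. The last of these was the loosest of the group, with WT replicate 1 at 1.26 times mutant replicate 1. Per transcript length, the authors' FPKM for these genes was 2636 in mutants and 6225 in WT for *actc1b*, the most abundant member on that scale, and 628 in mutants and 1331 in WT for *ckma*. Of the muscle contraction genes that the deposited tables name, 4 were tested, 3 were called lower and 1 higher in mutants, where 5.44% of all transcripts tested were called higher. The higher one was a transcript of *neb*, the thin filament protein nebulin, with a ratio of 2.96 on a mean of 14.7 reads. The files name a transcript only where the deposited tables list it as changed, so muscle genes without a change are not in this count. Over all named transcripts, 146 were called lower and 202 higher of 387 tested, and the counts on gene lists below are set beside these, with nothing read from them about a list.

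Plasma proteins numbered 3. *fetub* encodes fetuin B, a protease inhibitor secreted by the liver, *c3c* a copy of complement component C3, and *hamp2* a hepcidin, known in mammals as the hormone that closes the iron exporter. *fetub* had 165, 161 and 185 CPM in mutants, against 524, 396 and 532 CPM in WT, a ratio of 0.352. *c3c* had 27.0, 34.7 and 31.0 CPM in mutants, against 69.0, 78.5 and 55.2 CPM in WT, a ratio of 0.457. Mutant samples were close to one another for both. For *fetub* the WT samples were spread more widely, with means of 170 ± 13.2 CPM in mutants and 484 ± 76.4 CPM in WT (SD, n = 3 each). *hamp2* had 0.501, 1.08 and 0.697 CPM in mutants, against 3.38, 3.68 and 1.23 CPM in WT, on 7, 12 and 8 reads in mutants and 44, 42 and 13 reads in WT. Here WT replicate 3 lay just above mutant replicate 2, and without that WT sample the ratio was 0.215 in place of 0.275. Another complement gene that the deposited tables name, C7 (2 of 2), ran the other way with a ratio of 1.98. In the list of innate immune genes, which holds *c3c*, *hamp2* and *irf1b*, 3 of 5 named transcripts were called lower and 2 higher. Of all 387 named transcripts tested, 146 were called lower and 202 higher. Among all transcripts tested, named or not, 4.31% were called lower and 5.44% higher. The single gene named from a list of blood plasma proteins, *f9b*, a coagulation factor IX gene, was called higher with a ratio of 2.03.

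**Figure D2:**
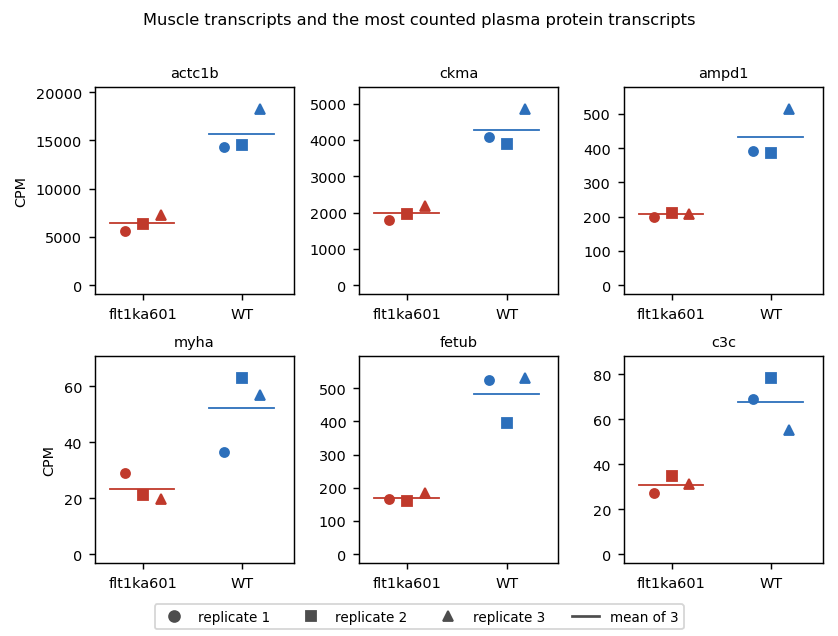
CPM in each of the 3 flt1ka601 samples (red, left) and 3 WT samples (blue, right) of 4 muscle and 2 plasma protein transcripts, with lines at the mean of 3 and linear axes. The mutant *actc1b* values of 5638 to 7307 CPM lie below WT values of 14279.9 to 18289 CPM, while the genotypes of *myha* come closest to each other.

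Metabolic enzymes made up 6 members. *mat2ab* encodes a methionine adenosyltransferase, which makes the methyl donor S-adenosylmethionine, and had 37.8, 29.6 and 31.9 CPM in mutants, against 72.8, 72.4 and 63.8 CPM in WT. *cyp2p7*, a cytochrome P450 of the CYP2 family, had 7.01, 8.46 and 7.84 CPM in mutants, against 26.6, 23.04 and 13.4 CPM in WT. *gsto1*, an omega class glutathione transferase, had 2.65, 7.11 and 7.14 CPM in mutants, against 16.9, 17.2 and 8.70 CPM in WT. For *cyp2p7* and *gsto1* WT replicate 3 was the low WT sample, and for *gsto1* it stood at 1.22 times the highest mutant. PPM1K (2 of 2), a mitochondrial phosphatase that switches on the breakdown of branched-chain amino acids, was more even, with 8.44, 8.82 and 9.93 CPM in mutants, against 20.1, 17.3 and 20.5 CPM in WT. ACOT12, a thioesterase that releases acetate from acetyl-CoA, averaged 1.98 ± 0.508 CPM in mutants and 5.02 ± 0.540 CPM in WT (SD, n = 3 each). The enzyme with the largest difference was *ugt2b3*, a glucuronosyltransferase, which is described with the near-absent transcripts below. Of the 8 tested transcripts on a list of drug and xenobiotic metabolism that the deposited tables name, 3 were called lower in mutants and 4 higher, beside 146 lower and 202 higher of all 387 named transcripts tested. The higher ones include *cyp2x7* and CYP2X12, of the same P450 family as *cyp2p7*, with ratios of 2.04 and 2.28.

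Transporters of ions and water numbered 4. *slc34a2a*, a sodium phosphate cotransporter, had 5.44, 6.84 and 8.27 CPM in mutants, against 19.3, 15.6 and 9.84 CPM in WT. *aqp10a*, an aquaglyceroporin, had 1.22, 1.89 and 2.96 CPM in mutants, against 4.15, 4.99 and 5.49 CPM in WT. In *slc34a2a* the genotypes came close through WT replicate 3, which in *aqp10a* was the highest WT sample. *rhcgl1* encodes an Rh glycoprotein, a channel for ammonia that fish use for excretion through skin and gill, and had 0.501, 0.990 and 1.83 CPM in mutants, against 3.46, 5.69 and 3.5 CPM in WT. *kcnj1a.2*, a potassium channel of the kind found in ion-transporting cells, had 1.86, 1.80 and 1.22 CPM in mutants, against 5.15, 4.73 and 3.41 CPM in WT. In the other 3, mutant replicate 1 was the lowest and replicate 3 the highest mutant, while in *kcnj1a.2* replicate 3 was the lowest. On a list of nutrient and ion transporters, 3 of 4 tested transcripts were called lower and 1 higher, again beside 146 lower and 202 higher of 387 named ones.

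The group of immune genes held 6 members, some placed by name alone, and included some of the lowest ratios. ITGAL is named after the leukocyte integrin subunit alpha L, while its deposited description calls it uncharacterized. It had 4.08, 4.95 and 3.40 CPM in mutants, against 12.9, 17.96 and 7.66 CPM in WT. RNH1 (4 of 23) has the deposited description NACHT, a domain name. It had 1.93, 2.79 and 2.79 CPM in mutants, against 8.30, 11.04 and 7.0 CPM in WT. RNH1 (8 of 23) has no deposited description and is placed here only by the name it shares with RNH1 (4 of 23). Whether these copies have an immune role was not tested. RNH1 (8 of 23) had 6, 3 and 0 reads in mutants, against 73, 78 and 36 reads in WT. The RNH1 name is given to numbered copies, and reads that fit more than 1 position are in no count, so the level of a single copy is uncertain. The other transcript with this name, RNH1 (7 of 23) with a mean of 5.83 reads, also had every mutant below every WT sample. The choice required this order of the members, and copies not listed as changed carry no name. Nothing about the family is therefore read from it. Among all transcripts with a mean count of 20 or more, 17.2% had this order. IL17RA (3 of 4), a receptor chain for interleukin 17, had 8, 4 and 6 reads in mutants, against 31, 41 and 117 reads in WT. Its ratio was 0.0854 with all samples and 0.162 without WT replicate 3, which supplied most of the WT reads. *irf1b*, an interferon regulatory factor, averaged 1.89 ± 0.171 CPM in mutants and 4.10 ± 0.169 CPM in WT, with little spread in either genotype. *ebi3*, a subunit shared by cytokines of the interleukin 12 family, averaged 1.54 ± 0.859 CPM in mutants and 3.11 ± 0.4503 CPM in WT. It was the least separated member, since its lowest WT sample was 1.13 times its highest mutant, and with 1 sample left out its ratio ran between 0.353 and 0.628.

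Eye, pigment and light genes numbered 4, with ratios between 0.392 and 0.481. The choice capped the ratio at 0.5 and most members lay from 0.3 to 0.5, so this range is not particular to the group. *cry5*, a light-responsive member of the cryptochrome and photolyase family, had 25.3, 21.1 and 22.9 CPM in mutants, against 49.4, 45.8 and 48.6 CPM in WT. *tyr* encodes tyrosinase, which makes melanin, and had 4.08, 6.48 and 6.97 CPM in mutants, against 12.6, 9.64 and 14.4 CPM in WT. *clul1*, a clusterin relative known from the cones of mammals, had 2.36, 3.69 and 3.66 CPM in mutants, against 7.38, 7.53 and 7.85 CPM in WT. Mutant replicate 1 was the lowest mutant sample for *tyr* and *clul1* but the highest for *cry5*. *crygm5*, a gamma crystallin of the lens, had 0.859, 0.900 and 1.31 CPM in mutants, against 2.08, 2.80 and 2.93 CPM in WT. The other gamma crystallin that the deposited tables name, *crygm2d17*, ran the other way, with a ratio of 5.90 on a mean of 15.3 reads. No photoreceptor opsin was a member. Of the 3 named genes on a list for phototransduction and retina, 0 were called lower and 1 higher by edgeR. Of all 387 named transcripts tested, 146 were called lower and 202 higher. Among all transcripts tested, named or not, 4.31% were called lower and 5.44% higher. On this list, the opsin *opn1lw1* had a ratio of 0.525 on a mean of 18.3 reads, and *guca1d* a ratio of 0.580. Both had every mutant below every WT sample, though neither was called. The gene called higher, *sagb*, had a ratio of 2.31.

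Genes of neural adhesion and synapses numbered 8, of which 5 were clustered protocadherins. These are adhesion proteins of neurons encoded in tandem, where each variable first exon has its own promoter and is joined to constant exons shared by the cluster, so that neurons carry different combinations on their surface. Reads in shared exons are ambiguous between the transcripts and enter no count. *pcdh2ab8* had 9.52, 8.37 and 4.88 CPM in mutants, against 19.9, 20.9 and 16.9 CPM in WT. *pcdh2ab3* had 3.72, 3.06 and 1.57 CPM in mutants, against 5.997, 6.83 and 5.39 CPM in WT. *pcdh2ab5* had 2.79, 2.52 and 0.958 CPM in mutants, against 7.46, 5.34 and 5.01 CPM in WT. Each of these 3 was lowest in mutant replicate 3, with the genotypes apart as the choice required. For *pcdh2g1* the mean was 1.24 ± 0.621 CPM in mutants and 3.08 ± 0.473 CPM in WT (SD, n = 3 each). For *pcdh2g4* it was 1.53 ± 1.05 CPM in mutants and 3.69 ± 0.830 CPM in WT. Mutant replicate 3 was the lowest of all samples for all 5, by more than 1.5 times against either other mutant. Its summed level over the 5 was 8.27 CPM, while mutants 1 and 2 had 20.0 and 17.5 CPM and WT 1 to 3 had 40.1, 38.7 and 35.4 CPM.

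The deposited tables name 6 further transcripts of clustered protocadherins, which were singled out after their values were seen, and all 6 were above every WT sample in every mutant. Among all 18081 transcripts with a mean count of 20 or more, 17.6% were, a set without *pcdh2aa3* at 15.8 reads. A transcript is named only where it was listed as changed, and 202 of the 387 named transcripts tested were called higher. Nothing about the family is therefore read from the order of these 6. The 6 are *pcdh2aa3*, *pcdh2aa15*, *pcdh2ab2*, *pcdh2ab7* and a pair of transcripts named *pcdh2ab12*, and their ratios ran between 2.06 and 3.06. Their summed level was 61.8, 61.5 and 75.3 CPM in mutants, against 25.4, 32.3 and 33.2 CPM in WT. Mutant replicate 3 was the highest mutant in 5 of these 6, the same sample that was lowest in the 5 members. Over all 11 the sums lay much closer together, at 81.5 ± 2.32 CPM in mutants and 68.4 ± 2.78 CPM in WT (SD, n = 3 each). They still did not overlap, with 79.0 to 83.6 CPM in mutants and 65.5 to 71.0 CPM in WT. The 11 join transcripts chosen as lower with others listed as higher, so closer sums follow in part from that mix. Transcripts of the clusters that the authors did not list carry no name in the files, so these sums do not cover the clusters as a whole. In the gene order of RefSeq's GRCz12tu assembly, *pcdh2ab3* and *pcdh2ab5* are direct neighbours, and 17 and 18 genes lie between them and *pcdh2g1*. The other members of this group were CASKIN2 (2 of 4) and the cerebellins *cbln7* and *cbln14*, secreted proteins that organize synapses. CASKIN2 (2 of 4) has the deposited description caskin-1-like, a scaffold protein named after its partner CASK, and whether neurons held its RNA was not tested. CASKIN2 (2 of 4) had 3.65, 3.69 and 3.75 CPM in mutants, against 11.1, 11.6 and 6.62 CPM in WT. *cbln7* had 2.58, 1.17 and 2.53 CPM in mutants, against 6.46, 6.66 and 4.82 CPM in WT, and *cbln14* had a ratio of 0.489. None of these 3 shared the low value of mutant replicate 3. From a list of neural genes, which holds the transporter member *kcnj1a.2* as called lower, the other named gene, *thy1*, a surface glycoprotein of neurons, was called higher with a ratio of 2.36.

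**Figure D3:**
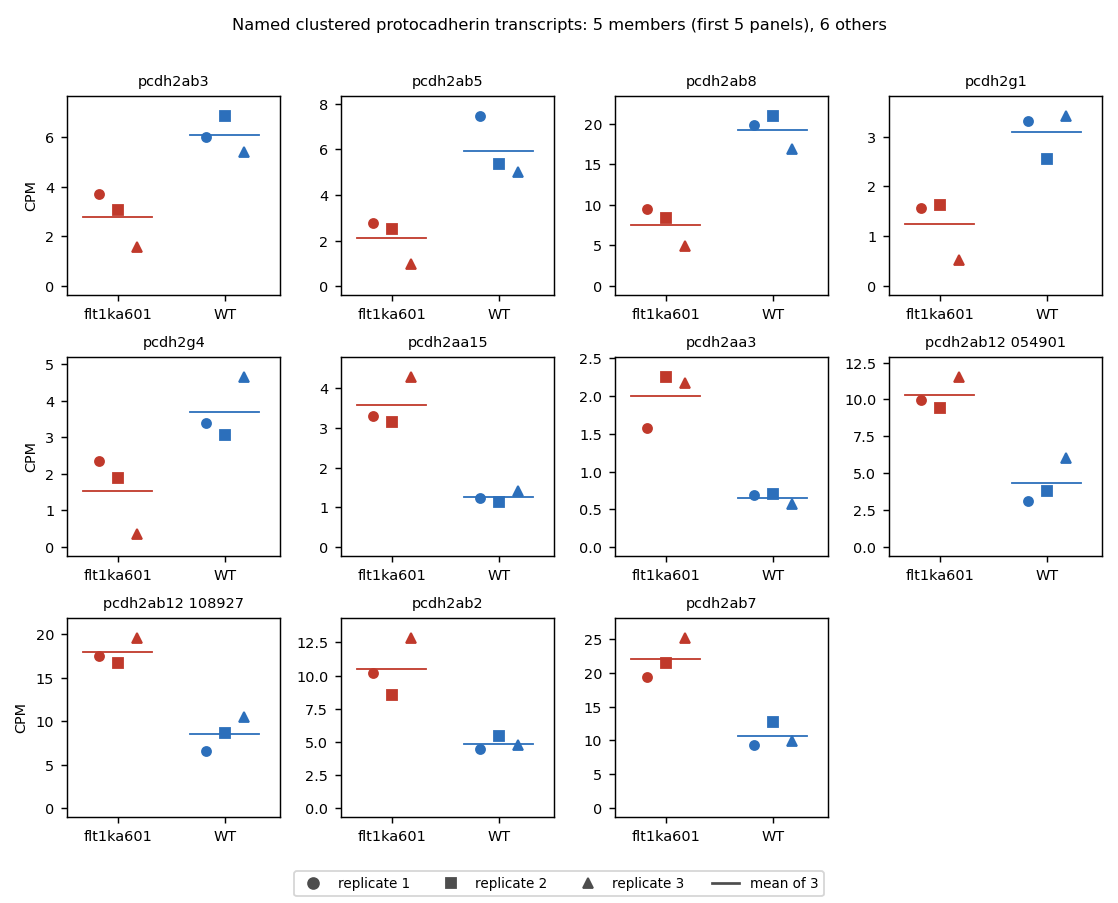
CPM of the 11 named clustered protocadherin transcripts in each of 3 flt1ka601 samples (red, left) and 3 WT samples (blue, right), on linear axes with lines at the mean of 3. The first 5 panels are members, with mutant replicate 3 (triangle) lowest in each, and the other 6 transcripts are higher in mutants, with the triangle highest in 5 of them.

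Receptors and signalling proteins numbered 7. EGFR (2 of 5), described in the files as like the melanoma receptor tyrosine kinase, had 2.36, 2.16 and 1.65 CPM in mutants, against 13.8, 16.1 and 9.46 CPM in WT, a ratio of 0.157. *grk4*, a kinase that shuts off G protein-coupled receptors, had 4.01, 3.24 and 4.96 CPM in mutants, against 11.9, 9.99 and 12.4 CPM in WT. *prkar1ab*, a regulatory subunit of protein kinase A, had 3.29, 2.07 and 2.09 CPM in mutants, against 7.53, 7.62 and 7.47 CPM in WT. The WT values of *prkar1ab* were among the most even of the set, while its mutant values were split by replicate 1. *mchr1b*, a receptor for melanin-concentrating hormone, which acts on appetite and pigment cells, had 6, 4 and 11 reads in mutants, against 105, 48 and 68 reads in WT. *smtlb* encodes somatolactin beta, a pituitary hormone of the growth hormone family, and averaged 0.960 ± 0.108 CPM in mutants and 2.48 ± 0.507 CPM in WT. *lrp6*, the Wnt coreceptor, averaged 2.39 ± 0.721 CPM in mutants and 5.39 ± 1.48 CPM in WT. *ptpro*, a receptor tyrosine phosphatase, averaged 1.66 ± 0.375 CPM in mutants and 3.99 ± 1.03 CPM in WT. For each of *smtlb*, *lrp6* and *ptpro*, WT replicate 1 was the highest and WT replicate 3 the lowest WT sample.

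Ribosome and splicing transcripts numbered 7, from 5 genes. SMU1 (2 of 2), a spliceosome protein, had 6.08, 5.22 and 4.88 CPM in mutants, against 10.5, 14.98 and 13.8 CPM in WT. *rpl31* encodes a protein of the large ribosomal subunit, and its more counted transcript had 6.66, 5.58 and 5.84 CPM in mutants, against 13.5, 14.3 and 10.7 CPM in WT. The other *rpl31* transcript had 1.43, 0.900 and 0.784 CPM in mutants, against 3.46, 2.37 and 3.12 CPM in WT. Reads shared with another transcript of the gene are left out of the counts, so these are not levels of the whole gene. *rps24*, of the small subunit, had 2.29, 1.17 and 0.958 CPM in mutants, against 5.92, 5.69 and 3.22 CPM in WT. Both *srsf5b* transcripts, from a gene for an SR splicing factor, were members, the more counted one with 4.01, 3.51 and 3.22 CPM in mutants, against 10.9, 7.62 and 7.38 CPM in WT, and the other with a ratio of 0.456. NUFIP1, known in mammals for the assembly of small nucleolar particles, had a ratio of 0.494. Mutant replicate 1 was the highest mutant in 6 of the 7. The other ribosomal protein transcripts that the deposited tables name, of *rpl8* and *rps10*, had ratios of 2.40 and 3.46, and ribosomal protein genes that these tables do not name are not covered.

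Transcription factors numbered 3. *crebl2*, a bZIP protein, had 1.22, 0.900 and 1.57 CPM in mutants, against 4.07, 3.68 and 3.03 CPM in WT. *carf*, named as a calcium-responsive factor, had 1.002, 1.26 and 1.05 CPM in mutants, against 2.92, 2.72 and 2.55 CPM in WT. The choice required a gap, and the lowest WT sample was 1.93 times the highest mutant for *crebl2* and 2.03 times for *carf*. *camta2*, a calmodulin-binding activator, had 6, 7 and 4 reads in mutants, against 66, 56 and 52 reads in WT, a ratio of 0.0945 with an even WT level of 4.97 ± 0.0939 CPM (SD, n = 3). On a list of nuclear receptors and other transcription factors, 0 of the 2 named genes were called lower and 1 higher, *klf3*, with a ratio of 2.754.

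Both members of the mitochondrial respiratory chain were under a ratio of 0.2. COX5B (2 of 3), a subunit of cytochrome c oxidase, had 1.86, 1.44 and 2.26 CPM in mutants, against 12.6, 9.11 and 10.4 CPM in WT, a ratio of 0.173. *ndufv3*, a subunit of complex I, had 9, 15 and 3 reads in mutants, against 69, 65 and 22 reads in WT. Its ratio of 0.172 became 0.104 without mutant replicate 2, and its lowest WT sample was 1.54 times its highest mutant. For COX5B (2 of 3) the nearest samples of the genotypes lay 4.02 times apart.

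Collagen processing was represented by an enzyme and a chaperone. *plod3* encodes a lysyl hydroxylase and glycosyltransferase of collagen, and *serpinh1b* encodes Hsp47, the chaperone of procollagen in the endoplasmic reticulum. *plod3* had 0, 0 and 1 reads in mutants, against 75, 64 and 48 reads in WT. *serpinh1b* had 2.22, 2.07 and 1.22 CPM in mutants, against 5.92, 5.26 and 6.53 CPM in WT, a ratio of 0.311. The differences of these transcripts were thus of unlike size. The first was a near loss of the counted transcript and the second a lower level with reads left in every mutant. Each value is that of a single transcript and not of the whole gene.

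The ubiquitin system had 3 members. *usp36*, a deubiquitinase of the nucleolus, had 10.1, 7.11 and 8.62 CPM in mutants, against 18.4, 18.4 and 19.8 CPM in WT. *klhl38b*, a kelch protein, had 3.79, 2.7 and 2.87 CPM in mutants, against 5.23, 6.57 and 7.19 CPM in WT. *trim108*, a tripartite motif protein, had 1.36, 2.25 and 2.003 CPM in mutants, against 3.54, 4.38 and 5.01 CPM in WT. Ratios in this group were among the mildest, from 0.434 to 0.493. Of the other TRIM transcripts that the deposited tables name, 3 were above every WT sample in every mutant and 1 was below. Among all transcripts with a mean count of 20 or more, 17.6% were above and 17.2% below. A TRIM transcript is named only where it was listed as changed, so nothing about the family is read from these counts.

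The remaining members share no role. C21H5orf24 (2 of 2) had 19.4, 21.5 and 19.3 CPM in mutants, against 34.8, 33.6 and 52.3 CPM in WT, and its ratio was 0.586 without WT replicate 3. Septin 10, a GTP-binding protein of the cytoskeleton, had 9.23, 8.55 and 9.67 CPM in mutants, against 33.4, 32.8 and 18.3 CPM in WT. In these members it was WT replicate 3 that departed from its group, upward in the first and downward in septin 10. A further transcript, named *sep10* and not a member, ran the other way, with a ratio of 4.17 on a mean of 317 reads. CRISP3, described in the files as like a cysteine-rich venom protein, had 5.01, 8.64 and 8.62 CPM in mutants, against 16.8, 19.6 and 18.4 CPM in WT. KAZN (3 of 3), like the desmosome-associated protein kazrin, had 2.72, 2.16 and 2.18 CPM in mutants, against 5.15, 3.59 and 5.68 CPM in WT. CRISP3 had even WT samples and a low mutant replicate 1.

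**Figure D4:**
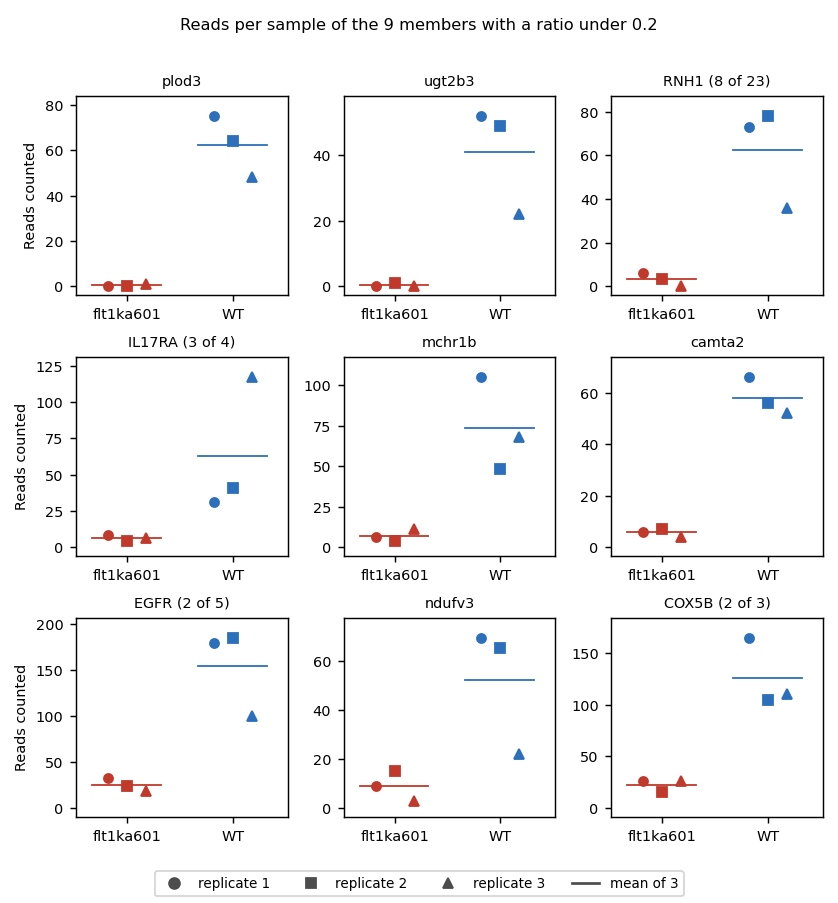
Reads counted per sample for the 9 members with a mutant over WT ratio under 0.2, in 3 flt1ka601 samples (red, left) and 3 WT samples (blue, right), on linear axes with lines at the mean of 3. *plod3* had 0, 0 and 1 reads in mutants and *ugt2b3* 0, 1 and 0, while IL17RA (3 of 4) owed most of its WT mean to replicate 3 with 117 reads.

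The 9 members with a ratio under 0.2 stood clear of the rest, of which the lowest was *rhcgl1* at 0.262. For *plod3* and *ugt2b3* the mutants held almost no reads. *ugt2b3* had 0, 1 and 0 reads in mutants, against 52, 49 and 22 reads in WT. With the reads of a genotype summed, the mutant over WT ratio was 0.00512 for *plod3* (95% exact binomial interval 0.000129 to 0.0289) and 0.00778 for *ugt2b3* (0.000195 to 0.0442). RNH1 (8 of 23), with 9 mutant reads against 187 WT reads, had a summed ratio of 0.0461 (0.0207 to 0.0893). These intervals cover counting error only. The other *ugt2b* transcript that the deposited tables name, *ugt2b6*, also had every mutant below every WT sample, with a ratio of 0.0686 on a mean of 7.67 reads. The other members with a ratio under 0.2, all with some mutant reads in every sample, were IL17RA (3 of 4), *mchr1b*, *camta2*, EGFR (2 of 5), *ndufv3* and COX5B (2 of 3), at 0.0854, 0.0934, 0.0945, 0.157, 0.172 and 0.173. A strain, AB, is given for the WT samples alone, so a difference in strain and one in *flt1* genotype cannot be told apart in these samples.

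**Figure D5:**
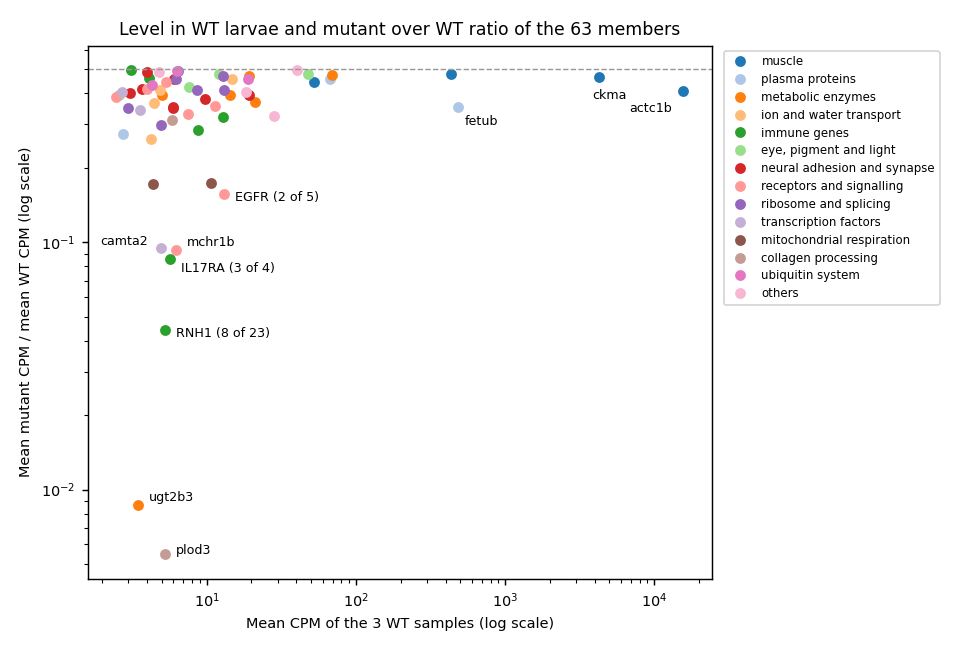
Mean CPM of the 3 WT samples against the ratio of mean mutant to mean WT CPM for the 63 members (both axes logarithmic), coloured by function, with a dashed line at the ratio of 0.5 that bounded the choice. The highly counted muscle members lie near that line, with ratios of 0.410 to 0.480, and all 9 members under 0.2 have WT means under 14 CPM.

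By gene number or symbol, 48 of the 61 member genes were matched to RefSeq's GRCz12tu assembly, whose gene order was used only to see which members neighbour each other. Of these, 18 had another member within 50 protein-coding genes, and 0 lay on the chromosome of *flt1*. Among the 192 other named genes that were matched, a larger set in which a neighbour is found more easily, 117 had another of the set within that distance and 2 lay on the chromosome of *flt1*, so nothing particular to the members is read from their positions. *lrp6* and *crebl2* have 1 gene between them, with 5 genes between *lrp6* and *ptpro* and 3 between *ptpro* and *crebl2*. *camta2* and *plod3*, both under a ratio of 0.1, have 9 genes between them, and PPM1K (2 of 2), which is RefSeq's *ppm1ka*, is on the same chromosome with 29 genes between it and *camta2*. *cry5* and *smtlb* have 3 genes between them, *aqp10a* and *trim108* 14, and *ebi3* and *cbln7* 23. Neighbours could differ in ratio, with 0.469 for PPM1K (2 of 2) and 0.0945 for *camta2*. Gene names here are those of the deposited data, and some matched genes have another symbol in RefSeq. It is *klhl38a* for *klhl38b*, *mat2aa* for *mat2ab* and *kcnj1a.1* for *kcnj1a.2*. Likewise it is *c3a.3* for *c3c*, *hamp* for *hamp2* and *rhcgb* for *rhcgl1*.

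For 28 of the 63 members the authors' Cuffdiff table gives an FPKM per genotype, made from the same reads with another counting method and so no independent measure. By these values the ratio of mutant to WT had a median of 0.406 and ran between 0.0376 and 0.498. The authors listed only transcripts past a fold cutoff, at which a lower one has a ratio of 0.5 or less. The upper end was thus fixed in advance, and nothing is read from these ratios. On this scale, which accounts for transcript length, the WT levels of the 28 spanned 0.852 to 6225 FPKM. Beside *actc1b* and *ckma*, *fetub* had 46.9 FPKM in mutants and 124 in WT, *ampd1* 39.8 in mutants and 82.8 in WT, and *mat2ab* 14.4 in mutants and 30.6 in WT. These 5 had the highest WT values of the 28 on that scale. The authors' DESeq table lists 56 of the 63 members, and 21 are in both. The paper counted a gene as differentially expressed only where both methods called it. Members without an FPKM include *plod3*, *ugt2b3*, *camta2*, EGFR (2 of 5) and COX5B (2 of 3), all with ratios among the lowest.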

How the data were processed

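RNA-seq of 3 flt1ka601 and 3 WT samples was analysed. Per the submitters' processing notes, reads were aligned with TopHat2 2.0.10 and Bowtie2 2.1.0 and counted with HTSeq 0.6.1. These notes name Zv9 (danRer7) and the paper another build, so no coordinates are given. The authors deposited raw counts per Ensembl transcript, with 1 column for the 2 technical replicates that the labels state. Of the reads placed once, 20.0% to 23.1% were ambiguous and 43.5% to 46.8% on no feature, and these entered no test. The deposited Cuffdiff table gives the authors' FPKM per genotype, and the deposited DESeq table a mean signal, counts over size factors, which the counts matched for 359 of 359 transcripts within 0.001%. Their columns of fold changes and p-values were not used, and 0 per-sample columns were left out.

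The tests used edgeR 4.0.16 in R 4.3.3 (TMM, filterByExpr with a minimum count of 10 and 15 in total, quasi-likelihood test, genotype alone), tested on simulated data. Alternatives used DESeq2 1.42.0, other scalings and filters, a replicate block and left-out samples. The members, their function groups and the gene lists were chosen with earlier results of these data known. All members are named, and sample values are given for the 3 with the highest mean WT CPM and the 3 with the lowest ratio in each group. Others named are the nearest outside a threshold, listed genes, and family copies singled out after their values were seen.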

Additional observations from a re-analysis of the deposited data

How the results depend on the processing

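The choice gave 63 members, and the same 63 with DESeq2's size factors or upper-quartile factors. Scaling by total counts gave 48, all of them members. With it the median log2 fold change of all tested transcripts was 0.122, against -0.00506 with TMM. A mean count of 50 or more left 33, a ratio of 0.4 or less 31, and no count minimum gave 79. Leaving out a sample gave 56 to 61, of which 53 to 58 were members. The count of members called lower by edgeR, 61, was 46 to 61 with a sample left out and 50 to 63 under the other settings. Transcripts called lower numbered 907 and those called higher 1145. Total counts gave 373 lower and 1829 higher, 83.1% of calls higher against 55.8% with TMM. Leaving out a sample gave 295 to 1297 lower and 422 to 1492 higher, and moved both counts by over 1.5 times for each mutant (351, 295 and 370 lower without replicate 1, 2 and 3) and for WT replicate 2 (465 lower). DESeq2's Wald test gave 698 lower and 830 higher. With the replicate block the counts were 1082 lower, 1270 higher and 61 members. Same-numbered samples deviated together only weakly, with correlations of 0.080, 0.022 and 0.064. Pairs with unlike numbers had lower correlations, from -0.064 to 0.0058. Whether same-numbered samples share more than a number cannot be told from these values. No member's ratio passed 1 under another scaling or with a sample left out, which the choice of members fixes. Leaving out 1 sample moved the ratio by over 1.5 times for 5 members: *plod3* (0 without mutant replicate 3), *ugt2b3* (0 without mutant replicate 2), RNH1 (8 of 23) (0.0255 without mutant replicate 1), IL17RA (3 of 4) (0.162 without WT replicate 3) and *ndufv3* (0.104 without mutant replicate 2). A read count near 0 in a genotype, as in *plod3* and *ugt2b3*, leaves the size of the ratio open to counting error.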
